A study of Mus musculus with 48 samples.

Results

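The 7 genes described here encode secreted cytokines that stromal cells of the lymph node can make, namely G-CSF (*Csf3*), M-CSF (*Csf1*), IL-34 (*Il34*), IL-6 (*Il6*), IL-11 (*Il11*), LIF (*Lif*) and the alarmin IL-33 (*Il33*). They were found by symbol among the annotated probes of the arrays, and all 7 were among the 13119 genes tested. Of their 12 probes, 1 per gene was chosen by its mean signal over all samples, the brightest, so the levels are given as a description. The genes had been listed with earlier results of these data known, including their changes with tumor, and the p-values below are no independent support.

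Fibroblastic reticular cells (FRCs, CD31- gp38+), blood endothelial cells (BECs, CD31+ gp38-), lymphatic endothelial cells (LECs, CD31+ gp38+) and double-negative cells (DN cells, CD31- gp38-) had been sorted from skin-draining lymph nodes after depletion of CD45+ cells, and RNA was hybridized to Illumina mouse bead arrays. The tumor group held mice injected intravenously with 200000 to 400000 Eμ-*Myc* lymphoma cells, B cells in which an immunoglobulin enhancer drives *Myc*, and lymphoma cells made up 4% to 10% of their lymphocytes. They were set against naive mice. The labels name no strain, and the methods list C57BL/6N mice among others. Each of the 8 groups held 3 biological replicates, for which 80 ng of RNA from 4 to 6 sorts were pooled, and each replicate was read on 2 strips. The p-values measure the spread between such pools, and whether replicates came from separate animals is not given.

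G-CSF and M-CSF are growth factors of neutrophils and of macrophages, and IL-34 is the other ligand of the M-CSF receptor. IL-6, IL-11 and LIF belong to the IL-6 family, whose receptors share the chain gp130 and signal through JAK kinases and STAT3. IL-33 is a nuclear cytokine of the IL-1 family that is released when cells are damaged, and FRCs and LECs are known sources of it in lymph nodes.

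Strips held 863780 to 1044181 beads, and the median probe was read on 18 to 22 of them. The number of arrays limits the precision. Each marker list had its highest medians in the cells of its own gate. The FRC markers gave 13.94 to 14.45 in FRCs, the BEC markers 14.18 to 14.88 in BECs and the LEC markers 13.37 to 13.94 in LECs. The lists also gave signal in other sorts, with 12.74 to 13.86 in LECs for the BEC markers. For the FRC markers LECs gave 10.97 to 11.33 and BECs of the tumor group 7.76 to 10.70. *Kdr*, one of the BEC markers, was near background in BECs (5.48 to 6.12). DN cells, which are defined by lacking both sort markers, gave 11.25 to 12.80 for the pericyte and smooth muscle list. That list is not particular to them, since FRCs of the tumor group gave 11.16 to 11.31 and naive FRCs 9.39 to 10.13. The epithelial and Schwann cell list gave 10.63 to 12.37 in DN cells and 10.98 to 12.39 in FRCs. The titles of all samples carry the word Endothel, also those of FRCs and DN cells. Each cell type lay on a slide of its own, so cell type and slide cannot be told apart, and neither can place on the slide and tumor state within a cell type. DN naive replicate 2 stood apart from its group, with an FRC marker median of 13.06 against 10.54 and 10.47 in the other naive DN replicates and a mean correlation of 0.925 with them. Signals are given as log2 values, for which 5.62 is the level of background, and the levels of different genes are not set against each other because each probe has its own brightness. In bulk samples fewer cells of a type and less RNA per cell cannot be told apart.

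**Figure D1:**
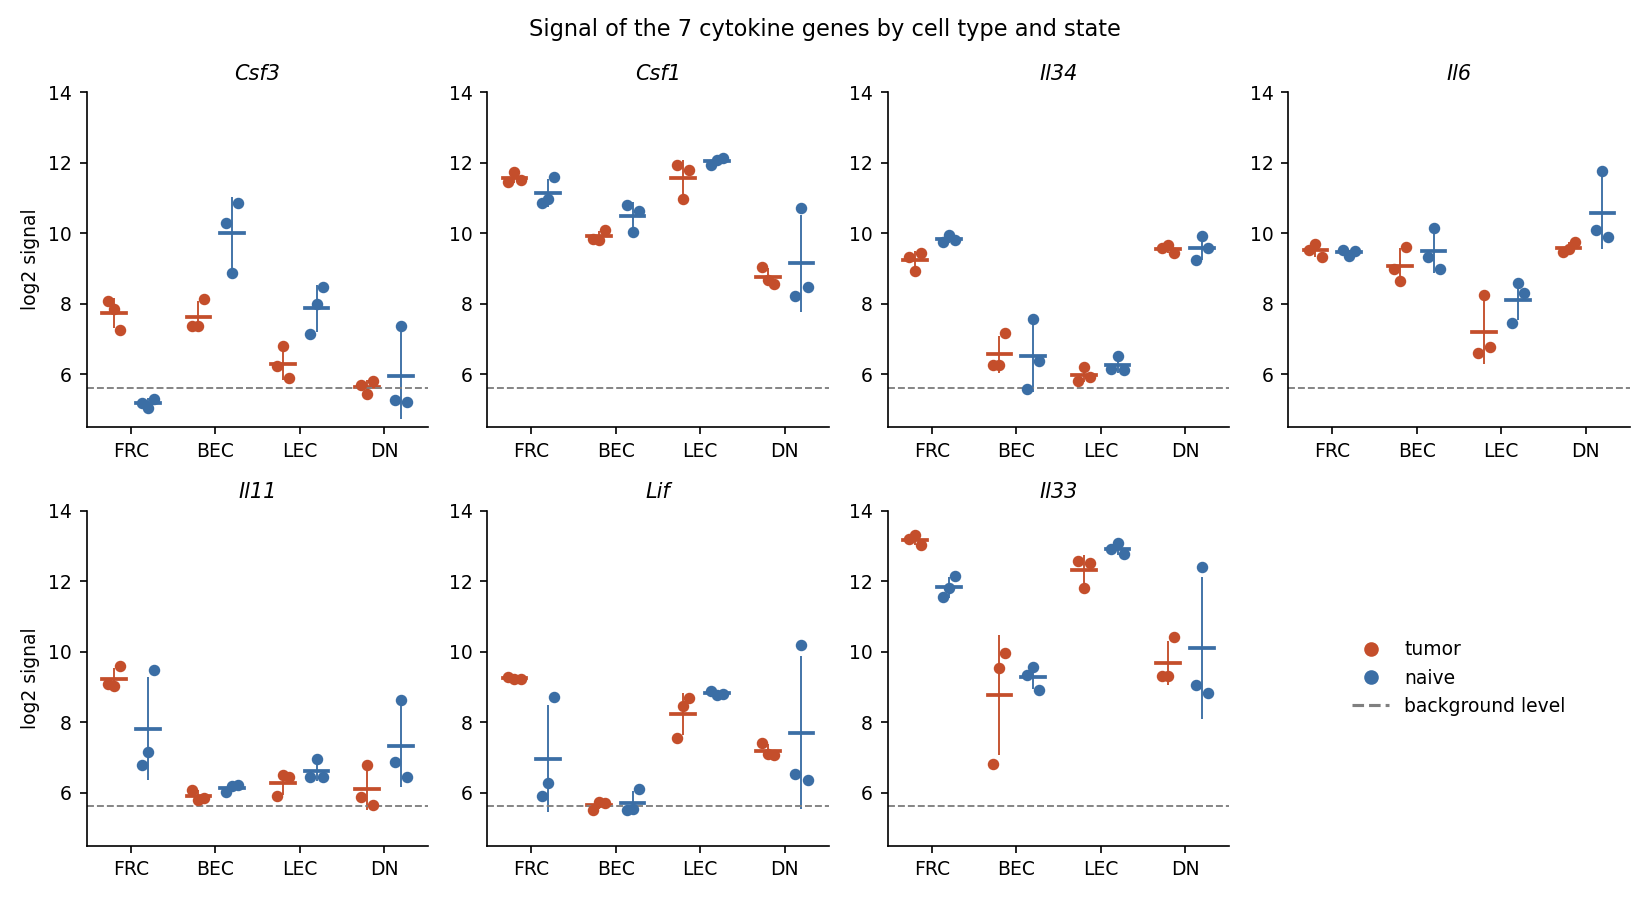
Log2 signal of the brightest probe of each gene in FRCs, BECs, LECs and DN cells of the tumor group and of naive mice, 1 point per replicate with mean and SD (n = 3 each) and the background level of 5.62 as a dashed line. *Csf3* of FRCs lies above background in the tumor replicates and below it in the naive ones, and DN naive replicate 2 is the highest naive DN point in every panel.

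*Csf3*, which encodes the growth factor that drives neutrophil production, rose in FRCs of the tumor group and fell in BECs. Its log2 signal in FRCs was 8.08, 7.84 and 7.26 in the tumor group, against 5.19, 5.05 and 5.31 in naive mice. All tumor replicates lay above background and all naive replicates below it. Since none of the naive FRC values was above background, the rise is given as at least 4.33-fold, from the tumor mean over the background level (tumor 7.73 ± 0.42, naive 5.18 ± 0.13; SD, n = 3 each). The log2 change was 2.55 (standard error 0.51, adjusted p = 0.0035, limma). In FRCs 6.40% of the 13119 genes were higher and 4.12% lower at the threshold of 0.05, and *Csf3* was the only one of the 7 cytokine genes called. In BECs the signal of *Csf3* was 7.38, 7.36 and 8.13 in the tumor group, against 10.28, 8.87 and 10.85 in naive mice. The groups did not overlap, and naive replicate 2 was the lowest of its group. *Csf3* fell 5.20-fold in BECs (log2 change -2.38, standard error 0.51, adjusted p = 0.0095, limma), where 3.60% of all genes were higher and 1.49% lower. Again no other cytokine gene was called. The call in BECs ended without tumor replicate 1 (adjusted p = 0.054), without tumor replicate 2 (0.066) and without naive replicate 3 (0.076), and in the fit of the BEC replicates alone (0.092), whereas the call in FRCs held in all 21 alternatives, with a highest adjusted p of 0.037.

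In LECs *Csf3* gave 6.24, 6.79 and 5.88 in the tumor group, against 7.15, 8.0 and 8.46 in naive mice. Every tumor value was below every naive value, but the change of -1.57 did not pass the test (standard error 0.51, 95% interval -2.64 to -0.50, adjusted p = 0.23). Of all genes, 0.785% were higher and 0.137% lower in LECs. In DN cells the values were 5.69, 5.43 and 5.82 in the tumor group, against 5.28, 7.38 and 5.21 in naive mice, near background in all but naive replicate 2 (log2 change -0.31, 95% interval -1.37 to 0.76). Here 4.78% of all genes were higher and 2.61% lower. Ordered by their mean, naive BECs had the highest level of *Csf3* at 10.00 ± 1.02 and did not overlap with the next group. Naive LECs, FRCs of the tumor group and BECs of the tumor group followed between 7.87 and 7.62 with overlapping ranges, and naive FRCs were last (SD, n = 3 each).

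The change of *Csf3* in FRCs minus that in BECs was 4.93 on the log2 scale (standard error 0.72, adjusted p = 0.0020), and minus that in LECs it was 4.11 (standard error 0.72, adjusted p = 0.0066). Both differences passed the limma test. With a replicate block, which treats same-numbered replicates as pairs, the difference from LECs missed the threshold (adjusted p = 0.050, limma). No naive FRC value was above background. With naive FRCs set at the background level the differences were 4.49 against BECs and 3.68 against LECs. These are point values without their error, and alternatives gave as little as 2.59 against BECs and 2.02 against LECs. Against DN cells the fitted difference was 2.85 and missed the threshold (adjusted p = 0.057), but it passed in 9 of 24 alternatives (lowest adjusted p = 0.0039). Also not called was that between BECs and LECs (-0.81, adjusted p = 0.97). With 6 pairs of cell types and 7 genes, 42 such differences were tested, of which those of *Csf3* between FRCs and BECs and between FRCs and LECs were called. Over all genes 0.930% were called for FRCs against BECs, 0.610% for FRCs against LECs and 1.25% for FRCs against DN cells. The shares were 0.00762% for BECs against LECs, 0.434% for BECs against DN cells and 0.259% for LECs against DN cells.

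**Figure D2:**
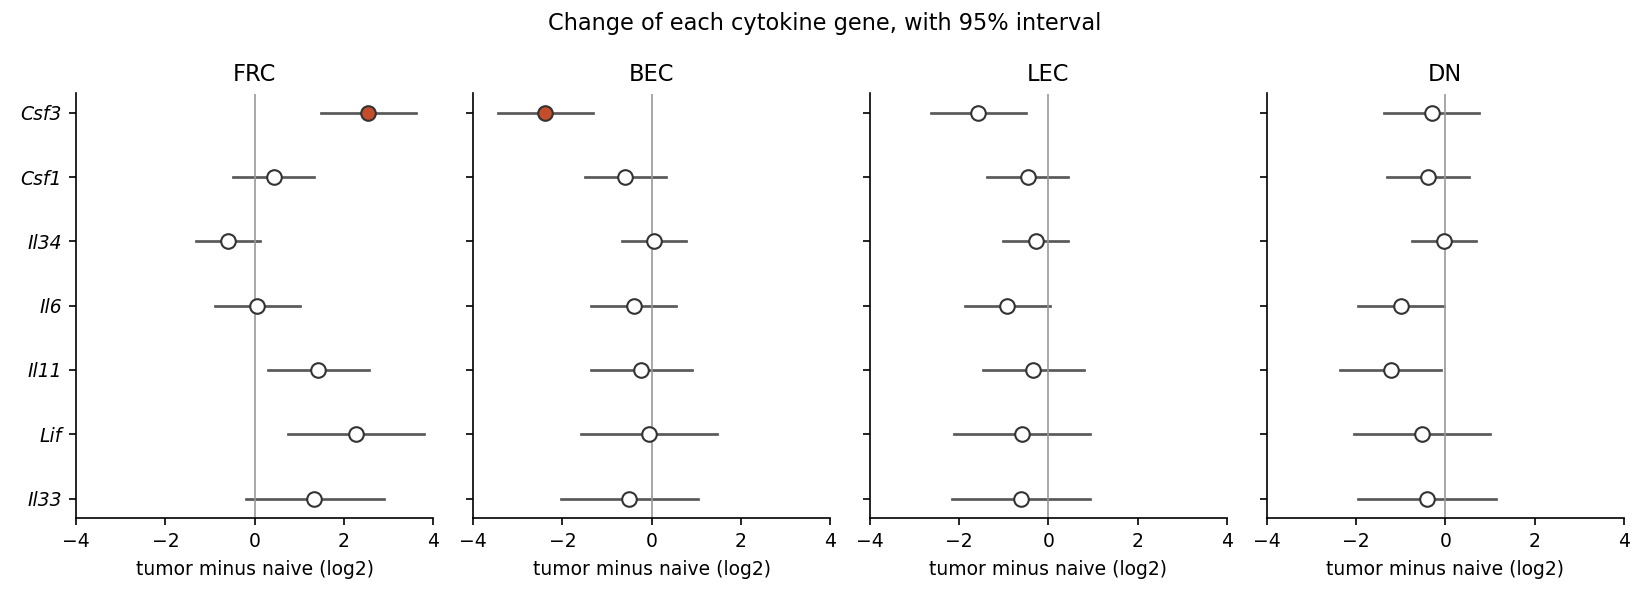
Tumor minus naive change of the log2 signal (x axis) of each cytokine gene in FRCs, BECs, LECs and DN cells, with its 95% interval from the limma model of all 8 groups (n = 3 each). Filled points passed the adjusted threshold of 0.05, which were *Csf3* in FRCs (2.55) and *Csf3* in BECs (-2.38).

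A second *Csf3* probe (ILMN_2744018), for the same transcript as the brightest one (ILMN_1217948), did not follow it. Its signal in FRCs was 5.65, 5.64 and 5.56 in the tumor group, against 5.68, 5.86 and 5.60 in naive mice. These values lie at the background level and the groups overlap (log2 change -0.10, 95% interval -0.39 to 0.19). In BECs it gave 5.73, 5.86 and 5.30 in the tumor group, against 5.88, 5.88 and 6.15 in naive mice, and in DN cells 5.52, 5.60 and 5.32 against 6.44, 6.01 and 6.23. Only the DN change passed the test among all probes (log2 change -0.75, adjusted p = 0.0042, limma), where 1.13% of 34885 probes were called lower. With the mean of both probes the *Csf3* change was 1.22 in FRCs and -1.36 in BECs, and both stayed called. That mean carries the change of the brightest probe, so it cannot test whether the probes agree. None of the alternatives used the second probe alone. Leukocyte markers moved beside these changes. The median of the neutrophil list was 8.37, 10.79 and 7.04 in BECs of the tumor group, against 5.78, 5.55 and 5.70 in naive BECs, with none of 4 tested genes called and summed linear signals of 572 to 9339 against 186 to 234. In FRCs the same sums were 200 to 741 in the tumor group and 217 to 232 in naive mice. *S100a8*, a calgranulin of neutrophils, gave 8.94, 12.30 and 7.66 in BECs of the tumor group, against 5.92, 5.74 and 5.79 in naive BECs (adjusted p = 0.055), while *Cxcr2* and *Ly6g* were not among the genes tested. In FRCs the median of the pericyte and smooth muscle list was 11.16, 11.19 and 11.31 in the tumor group, against 9.39, 9.47 and 10.13 in naive mice. Of its 7 genes 1 was called higher, where 6.40% of all genes were, and their median log2 change was 0.17. The part of leukocyte or pericyte RNA in the *Csf3* values was not tested.

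**Figure D3:**
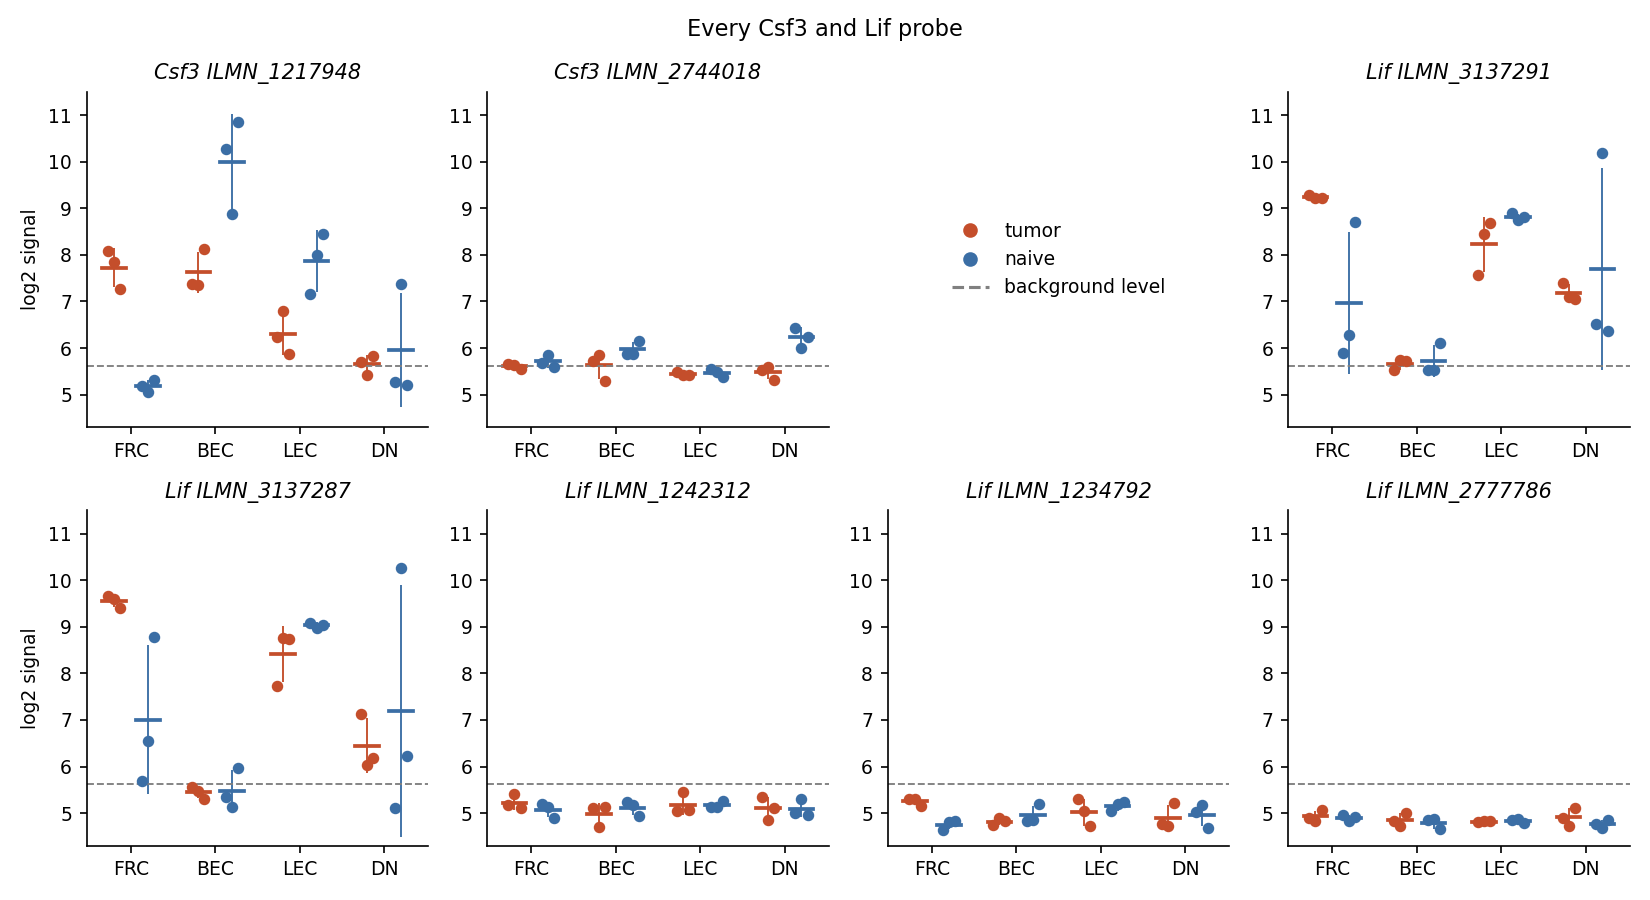
Log2 signal of both *Csf3* probes and all 5 *Lif* probes by cell type and state, 1 point per replicate with mean and SD (n = 3 each) and the background level as a dashed line. The second *Csf3* probe stays between 5.30 and 6.44, and 3 of the *Lif* probes stay below the background level of 5.62.

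*Csf1*, which encodes the main growth factor of macrophages, was above background in all 24 replicates. In FRCs its log2 signal was 11.44, 11.72 and 11.51 in the tumor group, against 10.84, 10.96 and 11.58 in naive mice. Naive replicate 3 lay inside the range of the tumor group (log2 change 0.43, 95% interval -0.48 to 1.34). In BECs the values were 9.83, 9.81 and 10.08 in the tumor group, against 10.79, 10.04 and 10.64 in naive mice, which overlap by naive replicate 2 (log2 change -0.59, 95% interval -1.49 to 0.32). LECs gave 11.93, 10.98 and 11.79 in the tumor group, against 11.93, 12.06 and 12.14 in naive mice (-0.47, interval -1.38 to 0.43). DN cells gave 9.04, 8.66 and 8.55, against 8.22, 10.72 and 8.48 in naive mice (-0.39, interval -1.30 to 0.52), and without DN naive replicate 2 the change was 0.40. LECs and FRCs had the highest levels of *Csf1*, with overlapping ranges from 12.04 ± 0.10 in naive LECs to 11.13 ± 0.40 in naive FRCs, and DN cells had the lowest (SD, n = 3 each).

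*Il34*, whose product binds the same receptor as M-CSF, separated the stromal cells in another way. Its signal was 9.31, 8.94 and 9.45 in FRCs of the tumor group, against 9.75, 9.95 and 9.81 in naive FRCs, so every tumor value was below every naive one. The change of -0.60 did not pass the test (standard error 0.34, 95% interval -1.32 to 0.12, adjusted p = 0.29). DN cells had 9.58, 9.65 and 9.43 in the tumor group, against 9.25, 9.93 and 9.57 in naive mice (-0.03, interval -0.75 to 0.69). In endothelium the signal was low. BECs gave 6.25, 6.27 and 7.17 in the tumor group, against 5.57, 7.57 and 6.37 in naive mice, and LECs gave 5.80, 6.20 and 5.92 against 6.16, 6.51 and 6.12. The intervals of these changes were -0.66 to 0.78 in BECs and -1.01 to 0.43 in LECs. The lowest group mean among FRCs and DN cells was 9.23 ± 0.26 and the highest among BECs and LECs was 6.56 ± 0.53, without overlap of their ranges (SD, n = 3 each).

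*Il6*, which encodes an inducer of the acute phase response, had nearly the same signal in FRCs of both states, with 9.52, 9.69 and 9.33 in the tumor group and 9.51, 9.36 and 9.49 in naive mice. The interval of the change, -0.90 to 1.01, leaves room for about a doubling in either direction. BECs had 8.98, 8.64 and 9.61 in the tumor group, against 9.33, 10.14 and 8.97 in naive mice, which overlap (-0.40, interval -1.35 to 0.55). LECs had the lowest level, with 6.59, 8.24 and 6.77 in the tumor group, against 7.46, 8.60 and 8.29 in naive mice (-0.92, interval -1.87 to 0.04). In DN cells every tumor value (9.46, 9.54 and 9.76) lay below every naive value (10.10, 11.75 and 9.89). That change of -0.99 did not pass the test either (standard error 0.46, adjusted p = 0.20, limma). Without DN naive replicate 2, which gave the highest *Il6* signal of all 24 replicates, it was -0.41. The level of naive DN cells (10.58 ± 1.02) did not overlap with DN cells of the tumor group (9.59 ± 0.16), the next by mean, but did with naive BECs, which reached 10.14. FRCs and BECs of both states followed with overlapping ranges (SD, n = 3 each).

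*Lif* and *Il11* stood out in FRCs without passing the test. LIF maintains stem cells and acts on stroma and vessels, and IL-11 acts on fibroblasts and bone marrow stroma. The signal of *Lif* (probe ILMN_3137291) in FRCs was 9.28, 9.23 and 9.23 in the tumor group, against 5.90, 6.29 and 8.71 in naive mice. The tumor replicates were nearly equal and lay above all naive ones, of which replicate 3 was far above the other two. The log2 change of 2.28 missed the threshold (standard error 0.73, 95% interval 0.75 to 3.80, adjusted p = 0.052, limma). *Il11* gave 9.09, 9.03 and 9.58 in the tumor group, against 6.79, 7.16 and 9.48 in naive FRCs. Here naive replicate 3 was inside the tumor range (log2 change 1.43, standard error 0.54, 95% interval 0.29 to 2.56, adjusted p = 0.099, limma). Without FRC naive replicate 3 the change was 3.15 for *Lif* (adjusted p = 0.0087) and 2.26 for *Il11* (adjusted p = 0.0039). Without DN naive replicate 2, which adds to the spread that all groups share, both passed with their changes as they were (adjusted p = 0.0030 for *Lif* and 0.044 for *Il11*).

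Of the LEC markers in the FRC samples, some had the same order as these values and others had not. Their median was 8.03, 7.16 and 7.01 in the tumor group, against 5.82, 5.63 and 8.11 in naive FRCs, so naive replicate 3 was high here too. *Lyve1*, a hyaluronan receptor of lymphatic endothelium, gave 9.18, 8.10 and 8.15 in the tumor group, against 5.87, 4.99 and 8.68 in naive FRCs. *Prox1*, the transcription factor that defines this lineage, gave 6.77, 6.22 and 5.83 in the tumor group, against 5.77, 5.47 and 7.53 in naive FRCs, and *Mmrn1* gave 6.88, 5.88 and 5.87 against 4.97, 4.86 and 6.96. All of these were high in naive replicate 3. *Reln* lay the other way, with 9.64, 8.67 and 10.07 in the tumor group, against 9.90, 10.35 and 10.99 in naive FRCs. *Flt4* was at or near background in all FRC replicates (5.30 to 5.78). None of the 6 LEC markers tested was called in FRCs, their median log2 change was 0.20, and their summed linear signals, to which *Pdpn* of FRCs themselves adds, were 25370 to 30980 in the tumor group and 21450 to 25860 in naive mice. The part of LEC RNA in the *Lif* and *Il11* values was not tested. *Il11* had means of 6.28 ± 0.33 in LECs of the tumor group and 6.62 ± 0.29 in naive LECs (SD, n = 3 each). Naive LECs, with up to 6.95, overlapped with naive FRCs, whose replicate 1 gave 6.79.

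Outside FRCs the group means of *Lif* were highest in LECs, with 7.56, 8.45 and 8.68 in the tumor group, against 8.89, 8.76 and 8.81 in naive mice. All tumor values were lower (log2 change -0.59, 95% interval -2.11 to 0.94). BECs had signals at or near background in both states, between 5.52 and 5.74 in the tumor group and between 5.52 and 6.11 in naive mice. DN cells gave 7.40, 7.09 and 7.06 in the tumor group, against 6.52, 10.20 and 6.37 in naive mice, where the change was -0.52 with all replicates and 0.74 without naive replicate 2. *Il11* was low in BECs, with 5.79 to 6.09 in the tumor group and 6.03 to 6.21 in naive mice. In DN cells it was 5.87, 6.78 and 5.66 in the tumor group, against 6.88, 8.63 and 6.46 in naive mice, which overlap (log2 change -1.22, adjusted p = 0.18, and -0.57 without naive replicate 2). The level of *Lif* in FRCs of the tumor group did not overlap with naive LECs, the next group by mean, but lay inside the range of naive DN cells, whose replicate 2 was the highest of all 24 replicates.

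A second *Lif* probe (ILMN_3137287) for the same transcript gave 9.67, 9.60 and 9.41 in FRCs of the tumor group, against 5.69, 6.55 and 8.78 in naive FRCs. It repeats the pattern of the first, with naive replicate 3 high (log2 change 2.55, standard error 0.87, adjusted p = 0.10 among all probes). The other 3 *Lif* probes are annotated to another transcript of the gene (NM_008501, against NM_001039537 for the 2 above) and gave no value above background in any of the 24 replicates. Their group means lay between 4.75 and 5.25.

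The alarmin gene *Il33* was also higher in FRCs of every tumor replicate, with 13.20, 13.31 and 13.01 in the tumor group, against 11.55, 11.80 and 12.14 in naive mice. The gap between the groups was wider than the range of either group. The log2 change of 1.34 did not pass the test (standard error 0.74, 95% interval -0.20 to 2.89, adjusted p = 0.27, limma). The standard error pools the spread of all 8 groups, which was largest in naive DN cells (SD 2.00) and in BECs of the tumor group (SD 1.70). Fitted on the FRC replicates only, *Il33* passed (adjusted p = 0.0051), as did the lower *Il34* (log2 change -0.60, adjusted p = 0.043), in a fit that called 18.7% of all genes. LECs gave 12.58, 11.81 and 12.52 in the tumor group, against 12.90, 13.09 and 12.76 in naive mice, every tumor value being lower (-0.61, interval -2.16 to 0.93). In BECs the values were 6.82, 9.54 and 9.95 in the tumor group, against 9.34, 9.56 and 8.90 in naive mice, with tumor replicate 1 far below the rest (-0.50, interval -2.04 to 1.05). Without that replicate the change was 0.48. LEC markers were lowest in the same replicate, with a median of 7.46 against 9.74 and 9.66 in the other BEC replicates of the tumor group, and so were FRC markers, with 7.76 against 10.70 and 9.50. The part of LEC or FRC RNA in these *Il33* values was not tested. DN cells had 9.32, 9.32 and 10.41 in the tumor group, against 9.06, 12.41 and 8.82 in naive mice (-0.41, and 0.74 without naive replicate 2). FRCs of the tumor group (13.17 ± 0.15) and naive LECs (12.92 ± 0.17) had the highest levels with overlapping ranges (SD, n = 3 each).

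Groups that do not overlap were common on these arrays, and the cytokine genes have to be read against that. In FRCs 3 of 7 genes (*Csf3*, *Lif* and *Il33*) lay above all naive replicates, where 19.5% of all genes did, and *Il34* lay below them, where 20.0% did. In BECs none lay above (12.9% of all genes) and *Csf3* lay below (13.1%). In LECs none lay above (11.3%) and *Csf3*, *Lif* and *Il33* lay below (9.28%). In DN cells none lay above (8.0%) and *Il6* lay below (7.98%). The median log2 change of the 7 genes was 1.34 in FRCs, -0.40 in BECs, -0.59 in LECs and -0.41 in DN cells, while the median of all genes lay between -0.07 and 0.00. The genes were listed with these changes known, so their medians are a description. In DN cells *Csf3*, *Csf1*, *Il34*, *Lif* and *Il33* turned upward without naive replicate 2. A two-sided exact permutation test of 3 replicates against 3 cannot give a p below 0.1, which each gene without overlap had. Of the 28 changes, 2 passed the adjusted threshold and 7 had an unadjusted p under 0.05. These were 3 of 7 genes in FRCs, where 25.5% of all genes had one, 1 in BECs (20.0% of all genes), 1 in LECs (8.83%) and 2 in DN cells (23.3%).

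**Figure D4:**
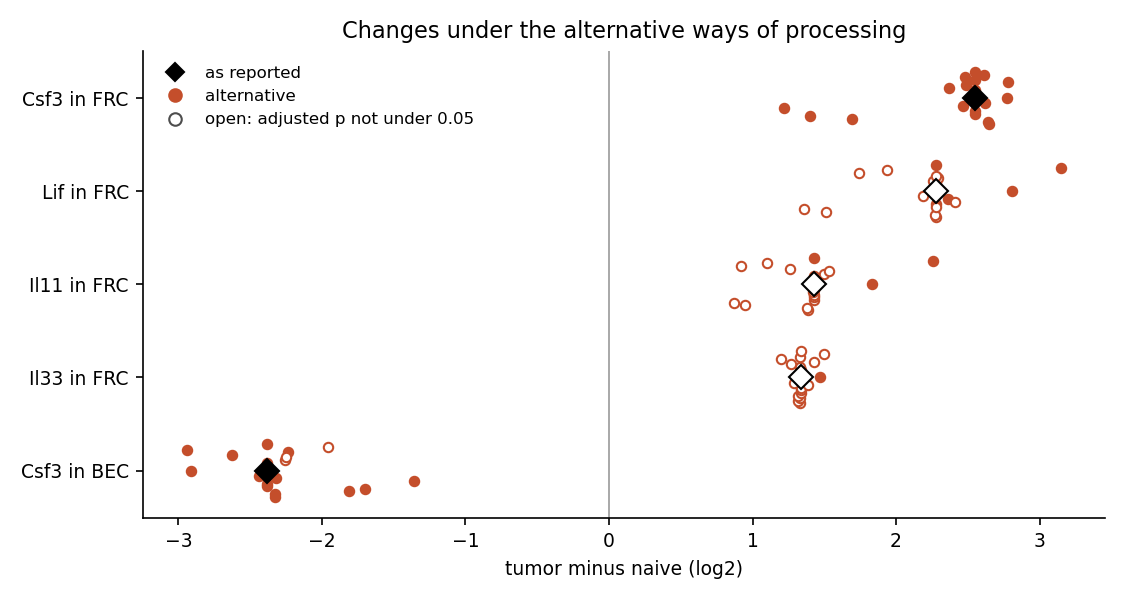
Tumor minus naive change (log2, x axis) of *Csf3*, *Lif*, *Il11* and *Il33* in FRCs and of *Csf3* in BECs, as reported (diamonds) and in 21 alternative ways of processing (circles), with open symbols where the adjusted p was not under 0.05. *Csf3* in FRCs is filled throughout, between 1.22 and 2.78, and *Lif* is filled in 6 alternatives.

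The promoters of *Lif*, *Il11* and *Il33* are shown because these genes had the largest FRC changes after *Csf3*, without passing the test, together with that of *Il6*, which was at nearly the same level in FRCs of both states. RefSeq (GRCm38.p6) holds promoter windows for 5 of the 7 genes in the table used, and *Csf3* and *Il34* had none. The 250 bases before each annotated start are given from 5′ to 3′ on the strand of the gene. Capitals mark matches on either strand to 5 motifs, namely NF-kappaB (GGGANNTTCC), AP-1 (TGANTCA), C/EBP (TTGCNNAA), the CRE half-site (TGACGT) and the TATA box (TATAAA). Letters shared by matches are marked once.
Lif (chr11:4257318-4257567, plus strand): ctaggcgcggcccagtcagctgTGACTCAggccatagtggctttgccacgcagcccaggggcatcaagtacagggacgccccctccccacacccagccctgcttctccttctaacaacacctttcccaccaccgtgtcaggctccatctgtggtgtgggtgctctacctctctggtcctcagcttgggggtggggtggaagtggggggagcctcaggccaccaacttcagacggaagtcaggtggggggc
Il11, downstream start (chr7:4778142-4778391, minus strand): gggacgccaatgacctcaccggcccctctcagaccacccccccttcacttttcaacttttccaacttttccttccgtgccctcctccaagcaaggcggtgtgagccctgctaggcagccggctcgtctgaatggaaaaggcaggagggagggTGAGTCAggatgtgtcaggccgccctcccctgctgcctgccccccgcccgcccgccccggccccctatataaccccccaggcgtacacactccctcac
Il33, first start (chr19:29924863-29925112, plus strand): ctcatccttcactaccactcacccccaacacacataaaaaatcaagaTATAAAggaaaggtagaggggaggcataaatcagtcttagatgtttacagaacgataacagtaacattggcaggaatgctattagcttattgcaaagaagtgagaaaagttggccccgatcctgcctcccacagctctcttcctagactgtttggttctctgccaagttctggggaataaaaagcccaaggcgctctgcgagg
Il33, second start (chr19:29945540-29945789, plus strand): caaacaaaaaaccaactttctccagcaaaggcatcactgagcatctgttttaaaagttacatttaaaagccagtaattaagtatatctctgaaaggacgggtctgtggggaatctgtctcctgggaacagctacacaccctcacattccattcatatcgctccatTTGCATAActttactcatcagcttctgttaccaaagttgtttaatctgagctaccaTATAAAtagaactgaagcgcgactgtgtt
Il6 (chr5:30012864-30013113, plus strand): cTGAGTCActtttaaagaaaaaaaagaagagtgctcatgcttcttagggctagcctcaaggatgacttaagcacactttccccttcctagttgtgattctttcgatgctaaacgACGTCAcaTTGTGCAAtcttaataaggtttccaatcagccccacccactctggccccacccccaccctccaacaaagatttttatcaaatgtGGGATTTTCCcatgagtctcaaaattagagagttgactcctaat

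*Il6* holds matches to 4 of the motifs, among them NF-kappaB with 44 to 35 bases before the start and C/EBP with 128 to 121. The NF-kappaB letters also lie 154 to 145 bases before the start of *Csf1*, whose window holds no other match and is not shown. *Il11* and *Lif* share the AP-1 letters, which end 92 bases before the start in *Il11* and 222 bases before it in *Lif*, and the other annotated start of *Il11* holds no match. *Il33* has the TATA box letters in both windows, 203 to 198 bases before the first start and 29 to 24 before the second. Of 32851 promoter windows of the same length, 1.21% hold the NF-kappaB letters, 6.75% AP-1, 9.56% C/EBP, 6.47% the CRE half-site and 12.4% the TATA box. A match describes the letters and is no evidence that a factor binds there.

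Of 11 receptor genes of these cytokines 9 were tested, and 1 rose in FRCs, 1 fell in BECs and none was called in LECs or DN cells. Over all genes 10.5% were called in FRCs, 5.08% in BECs, 0.922% in LECs and 7.39% in DN cells, in either direction. *Lifr*, the LIF receptor, fell in BECs, with 8.0, 7.88 and 8.69 in the tumor group, against 9.61, 9.05 and 9.55 in naive mice (log2 change -1.21, standard error 0.30, adjusted p = 0.023, limma). All tumor values were lower there, as they were in LECs, which gave 9.02, 8.65 and 9.31 in the tumor group, against 10.07, 10.03 and 9.89 in naive mice without passing the test (-1.0, adjusted p = 0.16). *Csf1r*, the receptor of M-CSF and IL-34 and a macrophage marker, rose in FRCs, with 6.70, 6.43 and 6.56 in the tumor group, against 5.35, 5.67 and 5.85 in naive mice (log2 change 0.94, adjusted p = 0.016). All of these values are close to background, and *Cd14*, another myeloid marker, rose in the same samples (log2 change 1.8, adjusted p = 0.019), 2 of 6 myeloid markers tested. In FRCs 6.40% of all genes were called higher. The summed linear signals of that list were 2369 to 3869 in FRCs of the tumor group and 859 to 1403 in naive FRCs, of which *Cd14* alone made up 77.9% to 92.2% in the tumor group and 73.7% to 82.7% in naive FRCs. Of the other markers *Lyz2* was higher in the tumor group without being called, with 6.34, 6.77 and 7.91 against 5.91, 5.47 and 6.01 in naive FRCs. *Tyrobp* had means of 5.25 in the tumor group and 5.22 in naive FRCs, *Fcer1g* of 5.81 and 5.69, and *Adgre1* of 5.10 and 4.94, these being at or near background. The part of myeloid RNA in the *Csf1r* values was not tested.

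*Il6st*, which encodes the shared chain gp130, and *Osmr*, the oncostatin M receptor chain, were above background in all groups. The mean of *Il6st* was 11.71 in FRCs of the tumor group and 11.67 in naive FRCs, and that of *Osmr* 12.46 and 11.82 (adjusted p = 0.96 and 0.34). *Il6ra*, which binds IL-6, had its highest means in FRCs, with 8.82 in the tumor group and 8.96 in naive mice. *Sdc1*, a proteoglycan that can bind IL-34, was lower in every FRC replicate of the tumor group, at 8.56 against 9.68 in naive mice, without passing the test (log2 change -1.12, adjusted p = 0.099). *Csf3r*, the G-CSF receptor, had means of 5.33 in FRCs of the tumor group and 5.48 in naive FRCs, and no group mean above 6.30. *Il1rap*, the accessory chain of the IL-33 receptor, was between 5.57 and 6.80 in all groups. *Ptprz1*, another binding partner of IL-34, was at or near background. *Il11ra1* and *Il1rl1*, the receptors of IL-11 and IL-33, were not among the genes tested.

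**Figure D5:**
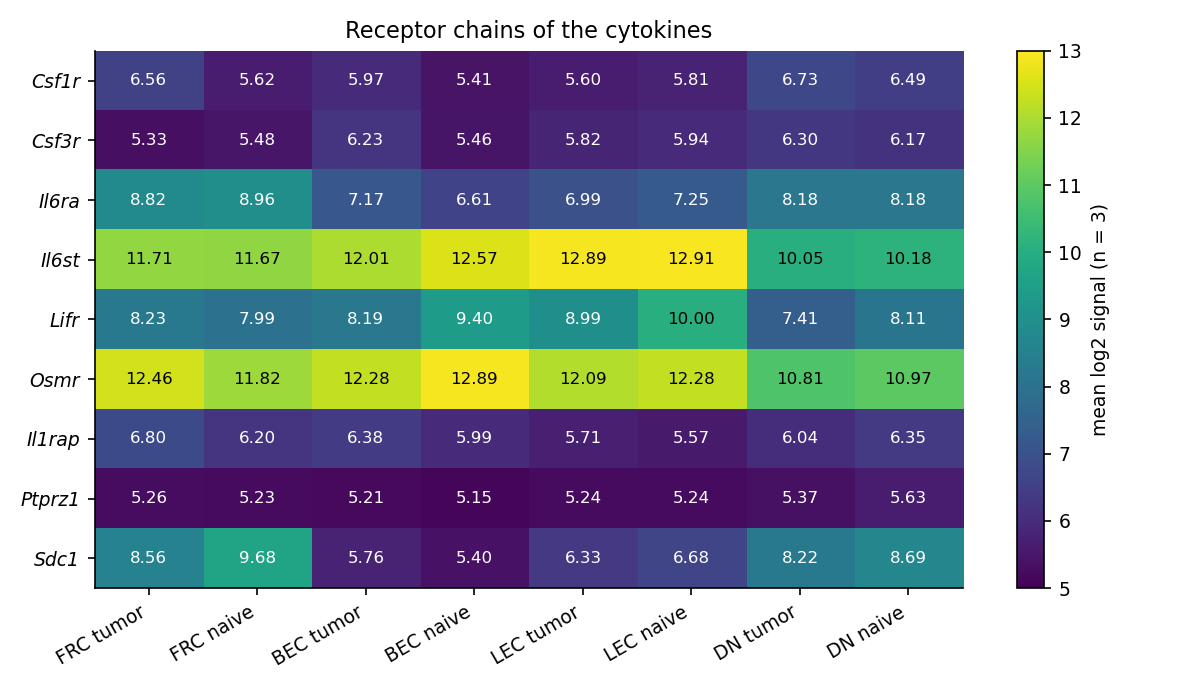
Mean log2 signal (color and printed value, n = 3) of the 9 receptor genes tested, in rows, for the tumor and naive group of each cell type, in columns. Values compare groups within a row only, and *Lifr* shows 8.19 in BECs of the tumor group and 9.40 in naive BECs.

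Among relatives of the cytokines, 14 of 19 were tested and 1 was called, *Csf2*, which encodes the growth factor GM-CSF. In FRCs it gave 11.35, 11.66 and 10.10 in the tumor group, against 7.72, 8.11 and 9.31 in naive mice. All tumor values were higher, and naive replicate 3 was again the highest naive one (log2 change 2.65, standard error 0.71, adjusted p = 0.022, limma). Of 23 JAK-STAT and IL-1 receptor signaling genes and STAT3 targets tested, 2 rose and 1 fell in FRCs, 2 rose and 1 fell in BECs, 1 fell in DN cells and none was called in LECs. These counts, and that of the relatives, stand beside 10.5% of all genes called in FRCs, 5.08% in BECs, 0.922% in LECs and 7.39% in DN cells. *Saa3*, which encodes an acute phase protein, rose in FRCs, with 13.22, 13.81 and 10.93 in the tumor group, against 8.79, 9.20 and 8.59 in naive mice (log2 change 3.79, adjusted p = 0.0085). *Lrg1*, another acute phase gene, had a change of 0.99 in FRCs (adjusted p = 0.044), and *Tyk2*, a JAK kinase, fell by 0.73 on the log2 scale (adjusted p = 0.026).

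In BECs *Ptpn6*, a phosphatase most abundant in leukocytes, rose by 2.82 (adjusted p = 0.024), with 11.25, 12.34 and 8.55 in the tumor group, against 7.67, 8.33 and 7.66 in naive mice. The summed linear signals of the 5 leukocyte markers tested were 3479 to 34990 in BECs of the tumor group and 4233 to 5421 in naive BECs, with none called, and their part in the *Ptpn6* values was not tested. *Timp1*, a peptidase inhibitor, rose by 1.15 in BECs (adjusted p = 0.047), and *Socs1*, an inhibitor of JAK kinases, fell by 0.95 to near background (adjusted p = 0.032). In DN cells *Cish*, another inhibitor of cytokine signaling, fell by 1.04 (adjusted p = 0.015), with means of 11.76 in the tumor group and 12.80 in naive mice that did not overlap in their replicates. Leukocyte markers were called higher in DN cells for 3 of 5 genes, with summed linear signals of 5620 to 47660 in the tumor group and 2719 to 4157 in naive mice. So were 3 of 3 B cell markers tested, with sums of 1261 to 11790 in the tumor group and 324 to 411 in naive mice, and 3 of 7 BEC markers, with sums of 27240 to 37510 and 11850 to 39250. Of all genes 4.78% were called higher in DN cells. *Pecam1*, which encodes the sort marker CD31, gave 10.60, 10.57 and 11.11 in DN cells of the tumor group, against 7.61, 9.15 and 5.74 in naive DN cells (adjusted p = 0.0040). The part of these cells in the DN values was not tested.

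Regulators of cytokine transcription and mRNA decay changed in FRCs for 5 of 20 genes tested, of which 3 rose and 2 fell, beside 6.40% and 4.12% of all genes. *Cebpd*, a transcription factor of the acute phase response, gave 10.81, 11.08 and 10.87 in the tumor group, against 10.19, 10.07 and 10.14 in naive FRCs (log2 change 0.79, adjusted p = 0.0045, limma). *Nfkb2*, which encodes the NF-kappaB subunit p52 and its precursor, gave 9.99, 9.96 and 9.98 in the tumor group, against 8.10, 8.11 and 9.10 in naive FRCs (log2 change 1.54, adjusted p = 0.011). *Fos*, a part of the AP-1 factor, was 14.33, 14.27 and 14.45 in the tumor group, against 15.07, 15.01 and 15.10 in naive FRCs (log2 change -0.71, adjusted p = 0.0083). None of these groups overlap. *Relb*, the partner of p52, rose by 0.96 (adjusted p = 0.040), a gene named here after its values were seen. *Atf3*, a stress-induced repressor, fell by 1.02 in FRCs (adjusted p = 0.018) and by 0.88 in DN cells (adjusted p = 0.048). In BECs *Zc3h12a*, which encodes an RNase that degrades the mRNA of *Il6*, fell by 1.36, with 9.37, 9.22 and 10.02 in the tumor group, against 11.17, 10.64 and 10.89 in naive mice (adjusted p = 0.014). No regulator was called in LECs.

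Over the 24 replicates, which share 8 groups and 4 slides, some genes had signals most like those of the cytokines by Pearson's r, given as a description. The closest to *Csf3* were *Tank* (0.90), *Rapgef2* (0.88) and *Trex1* (0.88), and to *Csf1* they were *Flrt3* (0.96), *Vcam1* (0.95) and *Gypc* (0.94). *Il34* was most like *Sytl2*, *Gucy1a1* and *Ndrg2* (0.97 each). For *Il6* the highest values were those of *Rasl11a* (0.90), *Bbs4* (0.89) and *Lin7a* (0.88), and for *Il11* those of *Plppr5* (0.93), *Syt13* (0.93) and *Orm2* (0.92). *Lif* was closest to *Cxcl16* (0.91), *Dnajc6* (0.87) and *Amph* (0.87), and *Il33* to *Trf* (0.97), *Serpina3n* (0.97) and *Cxcl16* (0.95). Among the 7 themselves the highest r was 0.81 between *Lif* and *Il33*, and the lowest was -0.56 between *Csf3* and *Il34*.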

How the data were processed

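The authors' table, as deposited, holds log2 values of 45281 probes on 48 strips, between 3.94 and 16.15, with strip medians of 5.38 to 5.64. How it was normalized is not given in the sources used here, and the paper refers to an earlier publication for the arrays. The bead files, as deposited by the authors, hold a fluorescence intensity per bead, and some intensities are below 0.

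All results start from the log2 values, which were quantile normalized over the strips with limma 3.58.1 in R 4.3.3. The mean of its 2 strips stood for each replicate. Dim probes peaked at 5.04, the SD below that peak was 0.19, and 3 such SDs above it (5.62) served as background level. The platform annotation gave 34885 probes 1 gene symbol, 18 several and 10378 none, and only probes with 1 symbol were used. A group mean over 5.62 was reached by 21306 of them, of which the brightest was taken for each of 13119 genes. Where no replicate of a group was above the level, a fold is given as at least the other group's mean over it.

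Changes were estimated with limma in 1 model of the 8 group means (16 residual and 3.19 prior degrees of freedom), adjusted by the Benjamini-Hochberg method over all genes with a threshold of 0.05, and differences between cell types as contrasts of the same model. Levels across cell types were not tested. The model was tested on simulated data. The genes, their lists and the tests were chosen with earlier results of these data known, so no p-value here is independent support. Apart from *Relb*, *S100a8* and the marker genes, which were named after their values were seen, those named are all 7 genes, every receptor, up to 3 genes with the smallest adjusted p per other list and cell type, and the 3 genes most like each cytokine.

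Deviations of same-numbered tumor and naive replicates correlated above 0.1 in every pair in LECs (0.20, 0.23 and 0.15), where the numbers were taken to pair the samples, and in no other cell type. In LECs no cytokine gene was called with or without the replicate block. For the alternatives, beads beyond 3 median absolute deviations were removed, bead codes were linked to probes by their values over the strips (45100 of 45160 complete probes, Python 3.11.15, numpy 2.4.6, pandas 2.3.3, scikit-learn 1.9.0), and normexp was used with an offset of 50. A cytokine probe was read on 6 to 40 beads per strip. Figures were drawn with matplotlib 3.10.9.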

Additional observations from a re-analysis of the deposited data

Results flagged for a closer look

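The change of *Csf3* differed between cell types by a test of the difference itself. The change in FRCs minus that in BECs was 4.93 on the log2 scale (adjusted p = 0.0020, limma), and minus that in LECs it was 4.11 (adjusted p = 0.0066). No naive FRC value was above background, and with naive FRCs set at the background level the sizes were 4.49 and 3.68. These are point values without their error and are no lower limits. Signals of the brightest *Csf3* probe were higher in 3 of 3 FRC replicates of the tumor group than in any naive FRC replicate, and lower in 3 of 3 BEC replicates and 3 of 3 LEC replicates of the tumor group than in any naive replicate of that cell type. Of all genes 19.5% lay above in FRCs, 13.1% below in BECs and 9.28% below in LECs. The second *Csf3* probe for the same transcript, at or near background, changed by -0.10 in FRCs, -0.34 in BECs and -0.03 in LECs. The first difference passed in all 24 alternatives (2.59 to 5.68, highest adjusted p = 0.026), and the second missed the threshold with the replicate block (4.11, adjusted p = 0.050).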

How the results depend on the processing

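The 28 changes were recomputed in 581 alternatives, of which 536 kept direction and side of the threshold. *Csf3* in FRCs passed in all 21, none of which used its second probe alone. The change ran from 1.22 (mean of both probes) to 2.78, with 1.69 and 1.40 from the bead files with and without normexp. In FRCs 1 cytokine gene was called, against 2 with the stricter filter, with strip 1 alone, with the intensity trend and robust prior (each adding *Lif*), with the replicate block (adding *Il11*) and with the unmoderated test (adding *Il33*), 3 with the cell type alone and 6 with array weights, whose estimation stopped before it converged. Over all genes 10.5% were called in FRCs, against 18.7% with the cell type alone, 5.12% with the unmoderated test and 39.8% with array weights. It was 13.1% with the stricter filter, 8.59% with strip 1 alone, 10.9% with the trend and robust prior and 7.65% with the replicate block. Leaving out single replicates gave 1 to 3 in FRCs and 0 to 1 in BECs. These fits called 3.67% to 10.8% of all genes in FRCs and 1.39% to 10.4% in BECs. In FRCs, BECs and DN cells same-numbered replicates correlated at -0.22 to 0.25, and whether they belong together is not known. The highest of these, 0.25 for FRC replicate 1, is above every LEC pair. In BECs 1 was called, against 0 with the cell type alone, 0 with the unmoderated test and 3 with array weights, in fits that called 0.922%, 0% and 30.5% of all genes. In LECs none was called except 1 with array weights, which called 4.08% of all genes. In DN cells none was called in the 20 alternatives, of which the cell type alone and the unmoderated test called 0 of all genes. At an unadjusted p under 0.05, 1 of 7 was called in LECs, where 8.83% of all genes were, and 2 in DN cells, where 23.3% were. The *Csf3* difference between FRCs and DN cells passed in 9 of 24 alternatives. *Il11* in DN cells was -0.57 without naive replicate 2.

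Directions turned for changes that had not passed the test. Leaving out 1 replicate at a time gave -0.03 to 0.15 for *Il6* in FRCs, and in BECs -0.41 to 0.59 for *Il34*, -0.16 to 0.14 for *Lif* and -1.09 to 0.48 for *Il33*. In DN cells it gave -0.68 to 0.41 for *Csf3*, -0.85 to 0.40 for *Csf1*, -0.20 to 0.14 for *Il34*, -1.18 to 0.74 for *Lif* and -1.05 to 0.74 for *Il33*, each highest without naive replicate 2. With array weights these DN changes were 0.08 for *Csf3*, 0.13 for *Csf1*, 0.13 for *Il34*, 0.40 for *Lif* and 0.20 for *Il33*. With strip 1 alone *Csf3* was 0.03 and *Il34* 0.10 in DN cells, and with strip 2 alone *Il34* was -0.17 in BECs. The causes were not tested. Of the other lists, the alternatives called 0 to 4 receptors, 0 to 3 relatives, 0 to 15 signaling genes and 2 to 13 regulators in FRCs, and 0 to 4, 0 to 4, 0 to 10 and 0 to 12 in BECs. The same fits called 3.67% to 39.8% of all genes in FRCs and 0% to 30.5% in BECs. The fits without DN naive replicate 2 for other cell types, and all alternatives for the other lists and for differences of *Csf3* between cell types, were added after seeing the data. Probes near background understate folds.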
